A study of Homo sapiens with 12 samples.

Results

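Raising GPD1L in the human colon cancer line SW480 was accompanied by small changes in many transcripts. The 6 libraries described here are 3 of an SW480 line overexpressing GPD1L (OE) and 3 of an SW480 line carrying the control vector (Vector), out of 12 libraries in the series. SW480 is an established line from a colon adenocarcinoma. Both lines were stably transfected, and no drug, time course or other treatment is given for either. The sources used here do not give the promoter and backbone of the construct, nor whether each line is a clone or a pool. With a single line in each arm, an effect of GPD1L and a difference between the lines cannot be told apart. Whether the 3 libraries of a group represent 3 cultures is not in the labels. The p-values therefore reflect only how these libraries varied, and that variation may be technical. The authors gave expression in FPKM, a fragment count divided by transcript length and sequencing depth. The comparison covers the genes averaging 1 FPKM or more across these libraries, 12208 of the 13583 listed. GPD1, at a mean of 0.458 FPKM in Vector, is among the 1375 left out, and 9 of 10 colon cancer line markers were tested, with CEACAM5 below the limit.

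GPD1L, glycerol-3-phosphate dehydrogenase 1-like, is closely related to cytosolic GPD1. GPD1 interconverts dihydroxyacetone phosphate, an intermediate of glycolysis, and glycerol-3-phosphate, the backbone of glycerolipids, with NADH as the cofactor. Together with mitochondrial GPD2 it forms a shuttle that passes electrons from cytosolic NADH to the respiratory chain. The series title links GPD1L to ATF3, a stress-induced transcription factor, and to ferroptosis, a form of cell death driven by iron-dependent oxidation of membrane lipids. Ferroptosis is held back by glutathione, which is made from cystine imported through SLC7A11 and used by the peroxidase GPX4.

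The targeted gene checks the labels. GPD1L (ENSG00000152642, chromosome 3, 32105689 to 32168713, plus strand, GRCh38) was at 10.7, 10.2 and 11.1 FPKM in Vector and at 22.3, 22.8 and 22.1 FPKM in OE. The groups did not overlap. Their means were 10.7 ± 0.449 and 22.4 ± 0.366 FPKM (SD, n = 3 each). On the log2(FPKM + 1) scale used for all changes below, which understates changes of low genes, this was a rise of 1.01 (SE 0.05, adjusted p = 4.74e-05 by limma). By exact permutation of the libraries (two-sided) p was 0.1, as low as 3 against 3 can reach. GPD1L ranked 4 among the called rises. Reads of the construct and of the cell's own gene were not separated in the files.

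Of the 12208 genes tested, 2740 had an adjusted p under 0.05 by limma and are referred to as called. They are 22.4% of the genes tested: 12.2% were higher and 10.3% lower in OE. Only 29 genes, or 0.238%, were called and changed at least 2-fold, of which 25 fell and 4 rose. The median size of a called change was 0.30, and the middle 90% of all tested genes lay between -0.37 and 0.32. Most of the response was thus made of small shifts, and the larger ones were mainly falls: 169 called genes fell and 53 rose by at least 1.5-fold. The called share went from 13.7% of genes at 1 to 5 FPKM to 37.5% of genes over 100 FPKM. In the former class 9.22% fell and 4.48% rose, and in the latter 25.4% fell and 12.1% rose. A gene under 1 FPKM in all OE libraries, such as NOTUM or FABP1, passed the filter only through Vector. Groups that do not overlap were found for 41.8% of all genes tested, so separation of the groups alone marks little here. The first principal component, with 49.6% of the variance, put the 3 Vector libraries between -13.9 and -11.3 and the 3 OE libraries between 10.6 and 14.3. Library totals were 437051 to 438967 FPKM in Vector and 421714 to 423368 FPKM in OE. With totals set equal the called genes were 3418 and 71.4% of them were higher, against 54.2% as deposited, 46.1% with median-of-ratios scaling and 49.6% with quantile normalization. These scalings moved the median change over all genes by no more than 0.05.

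**Figure D1:**
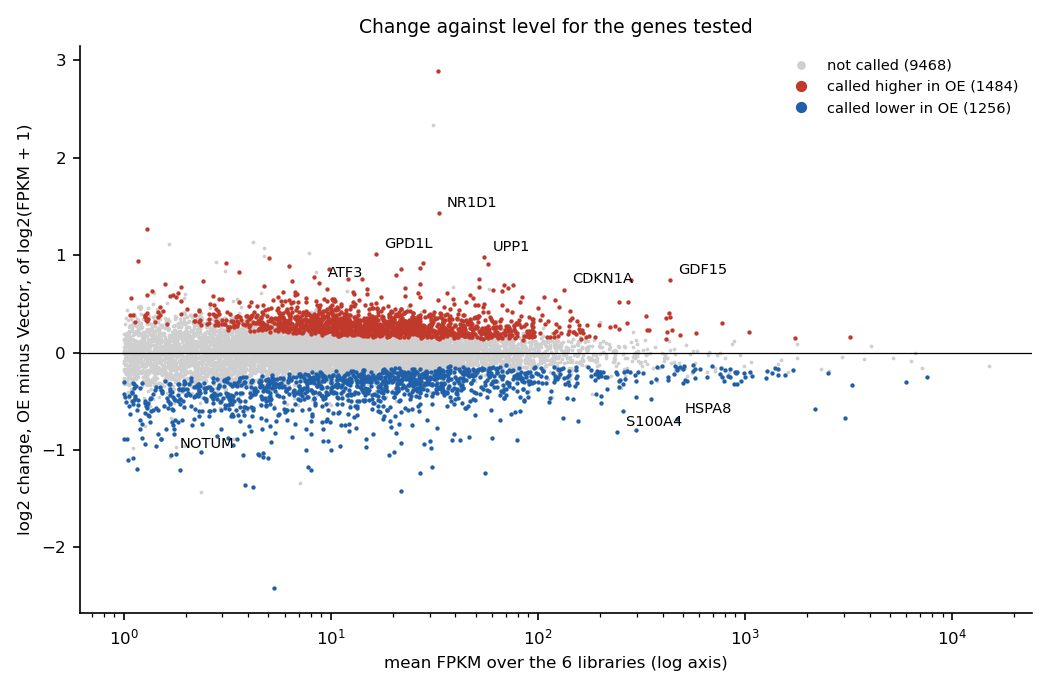
Each point is a gene, placed by its mean FPKM over the 6 libraries (log axis) and its log2 change in OE, with the 1484 genes called higher in red, the 1256 called lower in blue and the others in grey. NR1D1 (1.43), GPD1L (1.01) and UPP1 (0.98) are near the top of the called rises, and NOTUM (-1.05) is among the larger falls.

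The size of a change also moved with the base composition and length of the transcript. Over 11382 genes with an annotated coding transcript, the log2 change had a Spearman correlation of -0.341 with GC content and 0.241 with length. This is a correlation across genes, which are not independent, and is given as a description. Among the 2277 genes lowest in GC (30.2% to 41.3%) the median change was 0.12, with 23.6% called higher and 2.68% lower. Among the 2277 highest (59.1% to 74.7%) the median was -0.06, with 5.67% called higher and 16.1% lower. OE replicate 1 carried the widest trend, with medians of 0.17 and -0.12 in those classes, and OE replicate 3 the narrowest, with 0.10 and 0.00. A correction for GC and length was therefore added after the data were seen. It called 2795 genes, of which 2046 were shared with the uncorrected calls. Counts after this correction are given below for several gene groups.

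Clock genes were prominent among the rises. The circadian clock is a loop in which the activators CLOCK and ARNTL switch on genes with an E-box, among them the repressors PER, CRY, NR1D and BHLHE, which then switch the loop off. Of 9 clock repressors tested, 6 rose and 1 fell (77.8% called), with a median change of 0.48 against 0.02 over all genes tested. NR1D1 (chromosome 17, 40092787 to 40100725, minus strand), the heme-binding nuclear receptor REV-ERB alpha, was at 17.8, 17.1 and 17.6 FPKM in Vector and at 46.3, 49.5 and 51.1 FPKM in OE. The lowest OE library was far above the highest Vector library. The log2 change was 1.43 (SE 0.05, limma adjusted p = 1.71e-05). NR1D1 overlaps THRA on the other strand. No source says that counting used the strand, so for such pairs of genes the reads cannot be told apart.

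Other repressors rose, fell or were not called. NR1D2, encoding REV-ERB beta, rose from 18.8 ± 1.62 to 35.0 ± 0.482 FPKM (SD, n = 3 each). It overlaps NKIRAS1 on the other strand. BHLHE41, a repressor that competes for E-boxes, was at 3.47, 2.68 and 3.15 FPKM in Vector and 6.93, 6.47 and 7.61 FPKM in OE, a log2 change of 0.97. Its relative BHLHE40 rose by 0.48. PER1, a core period gene, was at 6.99, 6.60 and 6.54 FPKM in Vector and at 12.2, 12.98 and 13.8 FPKM in OE, a log2 change of 0.86 (SE 0.06, limma adjusted p = 0.000242). The other period genes were not called, with Vector and OE means of 3.43 and 3.87 FPKM for PER2 and of 4.67 and 4.94 FPKM for PER3. The cryptochromes parted: CRY2 rose by 0.24, whereas CRY1 fell from 19.2 ± 0.985 to 13.9 ± 0.292 FPKM (SD, n = 3 each), which is a change of -0.44.

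Among 12 clock activators and outputs, 6 rose and 3 fell. DBP, a PAR-type bZIP factor whose transcript follows the clock, rose from 15.3 ± 1.07 to 28.6 ± 3.63 FPKM, and its relative TEF rose from 8.50 ± 0.222 to 11.8 ± 0.807 FPKM (SD, n = 3 each). DBP overlaps SPHK2 on the other strand. RORA, a nuclear receptor that opposes REV-ERB, rose by 0.51. NPAS2, a relative of CLOCK, fell by 0.50. ARNTL itself was not called, with means of 10.7 and 11.4 FPKM. Without Vector replicate 2 the calls in this list were 3 higher and 2 lower, and without OE replicate 3 they were 3 and 3. The repressors had 5 or 6 rises and 1 fall in each of the 17 alternatives run.

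The promoters of several clock genes carry the letters of the E-box, and they are shown because the 4 genes shown rose. In RefSeq promoter windows from 250 bases before to 50 after the start (build GRCh38.p14), the motif CACGTG was searched on both strands. It is palindromic, and it did not overlap the other motifs searched in the stretches shown. It was in 4 of 10 clock repressors (PER1, BHLHE40, BHLHE41 and CIART, which the table does not list) and in TEF, 1 of 10 clock activators and outputs in the promoter table. Of all 35116 promoters in the table, 7.26% hold it, and of the 9071 promoters of tested genes 10.5%. Each stretch is written 5′ to 3′ on the strand of its gene, with the motif in capitals.
PER1, chr17:8152542-8152607, minus strand: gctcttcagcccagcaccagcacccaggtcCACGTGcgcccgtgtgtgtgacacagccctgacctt
BHLHE40, chr3:4979187-4979227, plus strand: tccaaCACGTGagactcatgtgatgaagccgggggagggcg
BHLHE41, chr12:26125050-26125115, minus strand: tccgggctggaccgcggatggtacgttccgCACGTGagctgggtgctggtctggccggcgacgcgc
TEF, chr22:41367230-41367295, plus strand: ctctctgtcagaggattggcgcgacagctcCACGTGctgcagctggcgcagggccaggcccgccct
The motif begins 173 bases before the start in PER1, 245 in BHLHE40, 48 in BHLHE41 and 195 in TEF. The same letters are not in the windows of NR1D1, NR1D2, DBP, CRY2 or CRY1, so genes with and without it rose. Over 953 tested genes with the motif in their window, 14.1% were called higher and 8.81% lower, beside 12.2% and 10.3% of all genes tested.

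**Figure D2:**
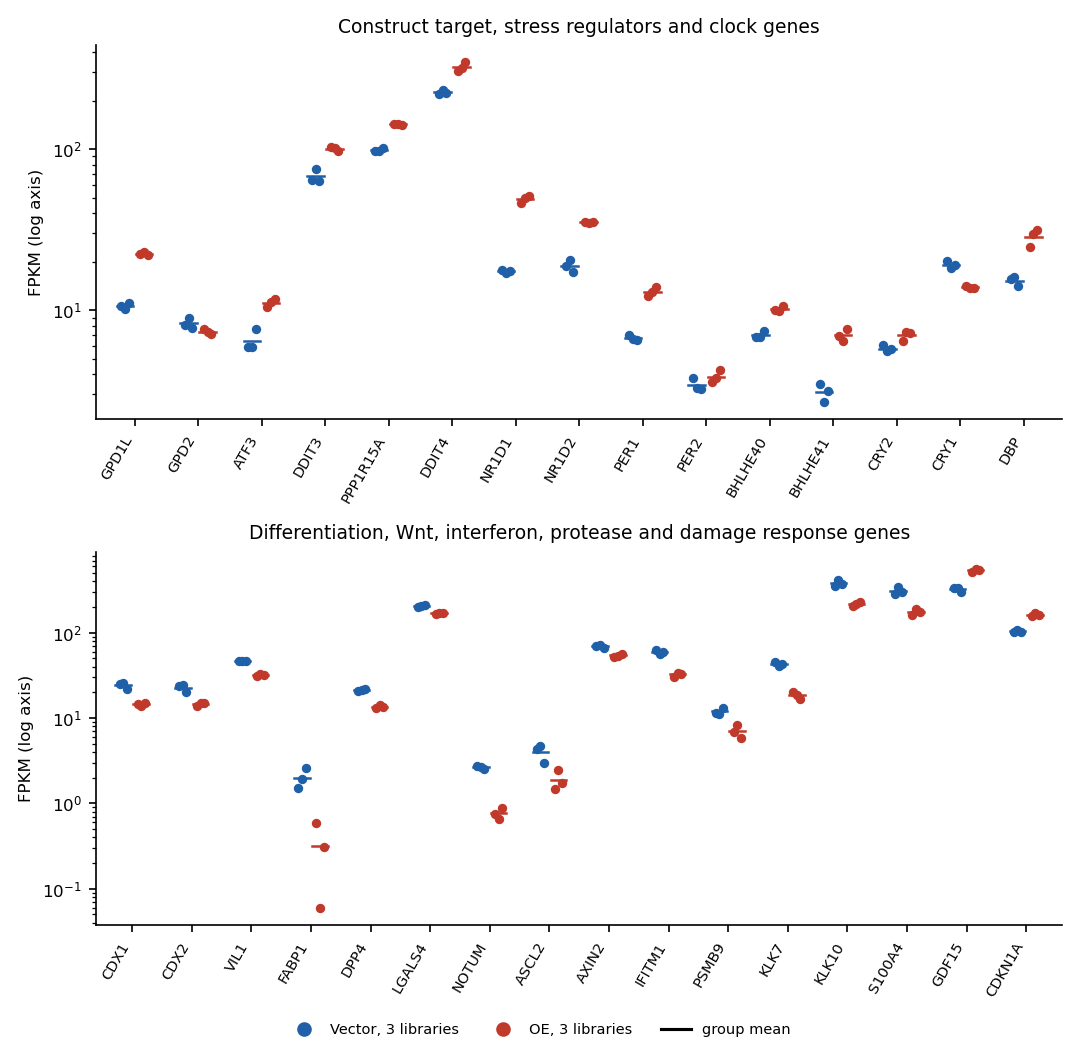
Points give the FPKM of each library (log axis) for Vector in blue and OE in red, 3 libraries each, and short lines the group means. The OE points of NR1D1 lie between 46.3 and 51.1 FPKM above Vector points of 17.1 to 17.8, while all 3 OE points of FABP1 lie below 1 FPKM.

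ATF3 and the transcripts of the integrated stress response rose in part. In this response, kinases that sense stress slow translation and favour the factor ATF4, which switches on DDIT3, ATF3 and genes of amino acid supply. ATF3 was at 5.88, 5.87 and 7.63 FPKM in Vector and at 10.4, 11.2 and 11.8 FPKM in OE. The groups did not overlap, and the log2 change was 0.71 (SE 0.10, limma adjusted p = 0.00257, with 0.00151 to 0.0137 over the 17 alternatives). Exact permutation (two-sided) again gave its lowest possible p, 0.1. The 20 stress regulators listed also include ATF6, XBP1 and ERN1, of the stress response of the endoplasmic reticulum. Of the 20, 9 rose, ATF6 and ERN1 among them, and none fell by limma (0 lower also at an unadjusted p under 0.05). The called share was 45.0% beside 22.4% of all genes, with a median change of 0.12. DDIT3, encoding the pro-apoptotic factor CHOP, was at 64.4, 75.0 and 63.5 FPKM in Vector and 102.5, 101.6 and 97.7 FPKM in OE. It overlaps MARS and MBD6 on the other strand. PPP1R15A, which restores translation, rose from 98.2 ± 2.33 to 142.6 ± 1.16 FPKM (SD, n = 3 each), which is a change of 0.53. DDIT4, an inhibitor of mTORC1 signalling, rose from 224.9 ± 7.13 to 322.4 ± 20.7 FPKM. The ATF4 transcript was not called, with means of 460 and 454 FPKM, and neither were NUPR1, CEBPB and XBP1. TRIB3, an ATF4 target, rose from 214 to 258 FPKM.

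The windows of ATF3 and PPP1R15A are shown for the motifs of these factors. The C/EBP-ATF element was searched as TGATGNAA and the cyclic AMP response element as TGACGTCA, on both strands, and they are in 3.62% and 1.85% of the 35116 promoters. Over the 9071 promoters of tested genes the shares were 1.49% and 3.41%. Among the 18 regulators in the promoter table, 3 held the former (ATF3, PPP1R15B and CHAC1) and 1 the latter (PPP1R15A). PPP1R15B and CHAC1 were not called. Of tested genes with the C/EBP-ATF element, 16.3% were called higher and 8.15% lower. With the cyclic AMP response element these shares were 16.5% and 4.85%, beside 12.2% and 10.3% of all genes tested.
ATF3, chr1:212565186-212565253, plus strand: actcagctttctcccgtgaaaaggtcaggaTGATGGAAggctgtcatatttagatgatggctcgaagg
PPP1R15A, chr19:48872333-48872400, plus strand: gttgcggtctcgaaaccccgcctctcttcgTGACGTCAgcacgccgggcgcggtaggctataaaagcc
The capitals mark the motif, which begins 191 bases before the start in ATF3 and 58 in PPP1R15A. A match describes letters only.

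Of 26 genes of amino acid supply and tRNA charging tested, 11 rose and 1 fell, with a median of 0.13, and 15 rose with the GC and length correction. SLC7A11, the cystine transporter, rose from 45.4 ± 1.67 to 63.2 ± 4.54 FPKM, and ASNS, asparagine synthetase, from 363.5 ± 9.66 to 463.4 ± 16.1 FPKM (SD, n = 3 each). MTHFD2, of mitochondrial one-carbon metabolism, rose by 0.36. The serine synthesis genes PHGDH, at 240 and 228 FPKM, and PSAT1, at 239 and 235 FPKM, were not called.

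Chaperones and degradation factors of the endoplasmic reticulum were called lower more than higher. Of 22, 13 fell and 1 rose, with a median change of -0.16. MANF, a secreted factor induced by unfolded proteins, was at 76.8, 71.2 and 67.6 FPKM in Vector and 48.5, 48.2 and 45.6 FPKM in OE, a log2 change of -0.59 (SE 0.06, limma adjusted p = 0.000547). SEC61B, of the translocation channel, fell from 132.2 ± 1.68 to 100.2 ± 2.2 FPKM and the disulfide isomerase gene PDIA6 from 289.6 ± 4.43 to 239.4 ± 3.57 FPKM (SD, n = 3 each). HSPA5, the central chaperone BiP, fell from 509 to 460 FPKM. The number that fell dropped to 7 with equal totals, without trend or with a replicate block. It was 6, 7 or 8 without Vector replicate 1, 2 or 3, 8 without OE replicate 1 and 7 without OE replicate 2. ERN1, the sensor kinase IRE1 on the same membrane, rose from 6.60 ± 0.429 to 8.99 ± 0.757 FPKM (SD, n = 3 each).

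Cytosolic heat shock genes were mixed, with 4 rising and 5 falling of 25. The falls numbered 5 or 6 in every alternative, while only 1 gene rose with a replicate block or without any single library other than OE replicate 1, where 2 did. HSPA8, an abundant constitutive HSP70, was at 609.8, 548.6 and 572.2 FPKM in Vector and 330.7, 378.7 and 368.6 FPKM in OE, a log2 change of -0.68. The inducible HSPA1A and HSPA1B fell by 0.92 and 0.90. These 2 genes are near-identical in sequence, so the division of reads between them is uncertain. HSPB1 fell from 160.7 ± 13.5 to 116.4 ± 10.3 FPKM (SD, n = 3 each). HSP90AA1 and HSP90AB1 were not called, at 304 and 306 FPKM and at 428 and 437 FPKM. The proteasome, which degrades damaged proteins, had 11 rises and no fall by limma among 32 subunits (0 lower also at an unadjusted p under 0.05), led by PSMC6 with a log2 change of 0.32. That count was 5 without OE replicate 2, 6 without Vector replicate 1, 7 without Vector replicate 2 or 3, and 7 without trend or with a replicate block. It was 15, with 1 fall, after the GC and length correction.

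Ferroptosis genes named in the series title's context did not move as a group. Of 25 suppressors, 7 rose and 4 fell, and of 25 drivers, 5 rose and 4 fell, with medians of 0.08 and 0.08. Among suppressors that act through glutathione, SLC7A11, GCLM and GCLC rose. GCLM, the modifier of the rate-limiting enzyme of glutathione synthesis, was at 20.3, 20.4 and 18.5 FPKM in Vector and 27.6, 25.3 and 27.4 FPKM in OE, and its catalytic partner GCLC rose by 0.31. The synthetase GSS and the reductase GSR were not called, at 46.0 and 47.5 and at 87.1 and 94.1 FPKM. GPX4 was not called, at 269 and 258 FPKM, nor was AIFM2, the FSP1 reductase, at 24.9 and 26.2 FPKM. The other rises among suppressors were those of NFE2L2, FTL, FADS2 and SQSTM1, and that of FTL was lost in some alternatives. Falls among suppressors were those of HSPB1, DHCR7, DHODH and the desaturase gene SCD, which fell by 0.30. That of DHODH was lost in some alternatives. Among drivers, ATF3 rose by 0.71 and LPCAT3, which loads polyunsaturated fatty acids into phospholipids, fell by 0.31. Other driver rises included those of ACSL4 and NCOA4, and the other falls were those of TFRC, HMOX1 and ACSL1. Of these calls, only that of NCOA4 was kept in every alternative. ALOX5, ALOX12, ALOX15 and ALOX15B are not listed in the table. Without Vector replicate 1 or 2, or OE replicate 3, the drivers had 4 rises and 1 fall.

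NRF2 targets, the antioxidant programme, were called in both directions. Of 27 tested, 6 rose and 8 fell. SRXN1, encoding sulfiredoxin, was at 55.0, 55.8 and 54.7 FPKM in Vector and at 87.5, 89.3 and 87.0 FPKM in OE, a log2 change of 0.66, and OSGIN1 also rose by 0.66. TXNRD1, thioredoxin reductase, rose by 0.30. Of the 8 falls, 4 were of aldo-keto reductases and the others of TKT, EPHX1, CBR1 and HMOX1. The calls of HMOX1 and of the aldo-keto reductase AKR1C2 were lost in some alternatives. TKT, transketolase, fell by 0.31 and EPHX1, an epoxide hydrolase, by 0.25. AKR1B10 was at 75.2, 78.1 and 79.6 FPKM in Vector and 40.7, 42.2 and 43.0 FPKM in OE, a log2 change of -0.87 (SE 0.04, limma adjusted p = 4.74e-05). AKR1C3 fell by 0.55 and AKR1C1 by 0.46. The AKR1C genes are close paralogs, so their division of reads is uncertain. NQO1, a standard NRF2 target, was not called, at 763 and 759 FPKM. In iron handling, 2 of 18 genes rose and 4 fell. The falls include HEPH, a ferroxidase, from 9.82 ± 0.510 to 6.81 ± 0.456 FPKM, and CYBRD1, a ferric reductase, from 41.8 ± 1.19 to 32.7 ± 0.820 FPKM (SD, n = 3 each). Without Vector replicate 2 or OE replicate 3 the iron list had 1 rise and 2 falls, and with equal totals 4 rises and 3 falls.

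Of 10 genes of the glycerol phosphate and malate-aspartate shuttles tested, 2 rose, a called share of 20% near the 22.4% of all genes: the overexpressed GPD1L itself and GOT1, the cytosolic transaminase of the malate-aspartate shuttle. None fell by limma, and none at an unadjusted p under 0.05. GOT1 was at 49.2, 49.2 and 49.0 FPKM in Vector and 67.9, 64.5 and 65.6 FPKM in OE, a log2 change of 0.42 (SE 0.04, limma adjusted p = 0.000595). GPD2, the mitochondrial partner, was at 8.13, 8.97 and 7.80 FPKM in Vector and 7.61, 7.34 and 7.07 FPKM in OE, which was not called (adjusted p = 0.135 by limma). It was called lower with the GC and length correction (log2 change -0.26, limma adjusted p = 0.0217), and in none of the other 16 alternatives. GPD1, at 0.471, 0.494 and 0.409 FPKM in Vector and 0.286, 0.543 and 0.450 FPKM in OE, had overlapping groups. MDH1, MDH2, GOT2 and GK were not called either.

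Of glycerolipid and fatty acid synthesis genes, which use glycerol-3-phosphate, 4 of 30 rose and 3 fell, a called share of 23.3% near that of all genes. ELOVL1, which elongates fatty acids, rose by 0.33, and FASN, ACACA, GPAM and SREBF1 were not called. Without Vector replicate 1 or 2, or OE replicate 3, this list had 3 rises and 1 fall. Of 24 genes of cholesterol synthesis and uptake, 8 fell, 1 rose and 15 were not called. INSIG1, which holds back the pathway's activator, fell by 0.45, and the synthesis enzymes LSS and SQLE by 0.42 and 0.41. In fatty acid oxidation, 5 of 17 genes fell and none rose by limma, nor at an unadjusted p under 0.05. The called share was 29.4%, beside 22.4% of all genes. HADH fell from 23.8 ± 0.695 to 17.6 ± 0.549 FPKM and ACADVL from 155.1 ± 2.54 to 125.6 ± 3.02 FPKM (SD, n = 3 each). The falls numbered 3 without Vector replicate 1 or OE replicate 2 and with equal totals. PPARA and CPT1A were not called.

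Glycolysis genes numbered 4 rises and 5 falls of 24. SLC2A3, a glucose transporter, rose from 8.80 ± 0.439 to 12.6 ± 0.720 FPKM and HK2, a hexokinase, from 22.7 ± 0.370 to 27.3 ± 1.13 FPKM, and ALDOC fell from 20.6 ± 0.659 to 15.6 ± 1.65 FPKM (SD, n = 3 each). LDHA, GAPDH and PKM were not called. With equal totals 9 rose and 2 fell, and with the GC and length correction 9 rose and 4 fell. The calls were 2 rises and 2 falls without Vector replicate 1 or OE replicate 3, 4 and 1 without Vector replicate 2, 2 and 3 without Vector replicate 3, and 3 and 2 without OE replicate 2 or without trend. Hypoxia genes had 8 rises and 3 falls of 22, with 4 to 6 rises when any single library was left out. NDRG1, KDM3A and VEGFA rose by 0.49, 0.50 and 0.36, while CA12, a hypoxia-induced carbonic anhydrase, fell from 6.28 ± 0.192 to 3.498 ± 0.237 FPKM (SD, n = 3 each). HIF1A was not called, at 20.1 and 21.2 FPKM.

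UPP1, uridine phosphorylase, which frees ribose from uridine, was among the largest single rises. It was at 40.7, 34.4 and 35.4 FPKM in Vector and 74.0, 73.4 and 73.2 FPKM in OE, a log2 change of 0.98 (SE 0.06, limma adjusted p = 0.000127). FOLR1, a folate receptor, was as prominent a fall, from 37.5, 37.8 and 38.9 FPKM to 17.5, 15.3 and 14.2 FPKM, a log2 change of -1.23. Over the 31 nucleotide and one-carbon genes, 3 rose and 6 fell.

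Respiratory chain subunits encoded in the nucleus were rarely called, with no rise and 2 falls of 36 by limma (5.56%). At an unadjusted p under 0.05 there were 2 rises and 5 falls. Under equal totals or the GC and length correction 3 of these subunits rose. Of 13 mitochondrially encoded messenger RNAs, 6 fell and none rose by limma, nor at an unadjusted p under 0.05. MT-ND1, a complex I subunit, was at 2541, 2600 and 2663 FPKM in Vector and 1810, 1756 and 1657 FPKM in OE, a log2 change of -0.58. The changes of the other 5 lay between -0.33 for MT-ND2 and -0.21 for MT-CYB. The falls numbered 2 to 8 over the 17 alternatives. With quantile normalization 2 fell and 1 rose. That method gives genes of equal rank the same value in each library, and the change of MT-CO2 became -2.56e-15. The calls lost there therefore cannot show whether the falls depend on the scaling. Of 78 mitochondrial ribosomal proteins, 14 rose and 5 fell, a called share of 24.4% near the 22.4% of all genes. The rises were 25 at equal totals, 20 after the GC and length correction and 5 without Vector replicate 2 or OE replicate 2.

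Cytosolic ribosomal protein genes were mostly lower. Of 79, 45 fell and none rose by limma, nor at an unadjusted p under 0.05, a called share of 57.0% with a median change of -0.20. RPL34 was at 292.1, 290.2 and 275.1 FPKM in Vector and at 213.4, 235.6 and 236.0 FPKM in OE, and RPL41 fell from 982.4 ± 49.2 to 786.6 ± 40.2 FPKM (SD, n = 3 each). OE replicate 1 lay furthest down, with a mean over the list of -0.28 relative to the Vector mean, against -0.18 and -0.17 in OE replicates 2 and 3. The number of falls was 35 with the GC and length correction, 29 with equal totals, 25 without trend and 16 with quantile normalization. It was 21 without Vector replicate 2 and 29 without OE replicate 1, and the median was below 0 in all 17 alternatives. Ribosomal proteins have many processed pseudogenes, so their reads may have been shared. Of 30 ribosome assembly genes, 7 rose and 1, FBL, fell, a called share of 26.7% near the 22.4% of all genes. DDX21 rose from 90.7 ± 1.66 to 114.3 ± 0.923 FPKM and NPM1 from 538.2 ± 4.73 to 618.6 ± 13.4 FPKM (SD, n = 3 each). The rises were 12 with equal totals, and 2 to 4 with quantile normalization, with a replicate block or without Vector replicate 1 or 2 or any OE replicate.

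Calls among replication and mitotic genes lay in opposite directions. DNA replication begins when E2F factors switch on helicase and polymerase genes in late G1, and mitotic genes follow in G2. Of 33 replication genes, 17 fell and 1 rose, with a median change of -0.21. Of 30 mitotic genes, 15 rose and none fell by limma (1 lower at an unadjusted p under 0.05), with a median of 0.18. After GC and length correction the counts were 15 falls with no rise, and 15 rises with no fall. The list means in the 3 OE libraries were -0.26, -0.22 and -0.23 for replication and 0.16, 0.18 and 0.19 for mitosis, relative to the Vector mean, while those in the 3 Vector libraries stayed between -0.03 and 0.05.

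MCM3, of the replicative helicase, was at 51.5, 55.2 and 55.0 FPKM in Vector and 37.4, 34.5 and 36.4 FPKM in OE, a log2 change of -0.57 (SE 0.05, limma adjusted p = 0.000459). All 6 helicase subunits, MCM2 to MCM7, were called lower, from -0.18 for MCM7 to -0.57 for MCM3. UNG, which removes uracil from DNA, fell by 0.59 and FEN1, the flap endonuclease, by 0.58. FEN1 overlaps FADS2 on its own strand and TMEM258 on the other. E2F1 fell from 17.3 ± 1.22 to 12.0 ± 1.32 FPKM, and CCNE2 from 8.30 to 6.05 FPKM. Without Vector replicate 2 the falls numbered 10. On the mitotic side, CENPF, a kinetochore protein, was at 17.5, 16.7 and 16.2 FPKM in Vector and 23.0, 22.4 and 22.9 FPKM in OE, a log2 change of 0.42. NDC80 and CENPE rose by 0.42 and 0.45, and KIF2C and TTK by 0.36 and 0.30. CCNB1, PLK1 and AURKB were not called, at 63.3 and 65.5, 42.2 and 46.6, and 41.2 and 40.4 FPKM.

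**Figure D3:**
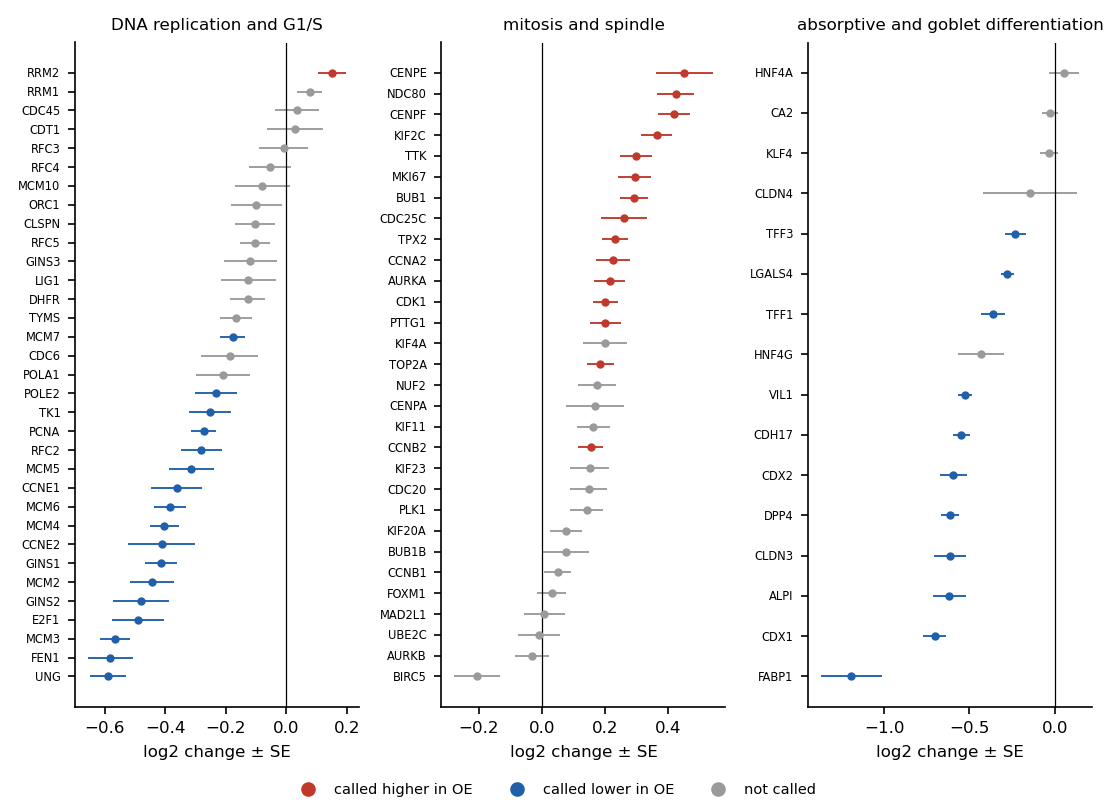
Each point is the log2 change of a gene in OE with its SE, for 33 replication genes, 30 mitotic genes and most of the differentiation genes, in red where called higher, blue where called lower and grey otherwise. Replication genes lie mostly left of 0 and mitotic genes mostly right of it. Differentiation genes reach -1.19 at FABP1, which passed the filter only through Vector.

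Some histone transcripts and genes induced by DNA damage were also called higher. Of 9 histone genes tested, 6 rose, with a median of 0.53. None fell by limma, nor at an unadjusted p under 0.05. HIST1H2BK was at 19.3, 21.4 and 16.4 FPKM in Vector and 36.4, 38.2 and 35.6 FPKM in OE, a log2 change of 0.92, and HIST1H1C, a linker histone, rose by 0.88. Histone genes are near-identical within a class, so reads may have been shared, and most replication-type histone messages lack a poly(A) tail, which this library type selects. A list of genes of cell cycle arrest, DNA repair and apoptosis that DNA damage induces, such as CDKN1A, MDM2, BAX and TNFRSF10B, had 25 tested members. Of these, 11 rose and none fell by limma (2 lower at an unadjusted p under 0.05), with a median of 0.15. CDKN1A, the cell cycle inhibitor p21, was at 103.3, 107.3 and 100.9 FPKM in Vector and 157.4, 169.6 and 161.4 FPKM in OE (log2 change 0.64, SE 0.04, limma adjusted p = 0.000179). GDF15, a secreted stress cytokine, rose from 323.4 ± 20.6 to 541.4 ± 24.7 FPKM, MDM2, a ubiquitin ligase, from 8.31 ± 0.113 to 12.4 ± 0.715 FPKM, and TNFRSF10B, a death receptor, from 91.2 ± 3.93 to 119.3 ± 3.82 FPKM (SD, n = 3 each). BAX, CCNG1, SESN1 and ZMAT3, of the same list, were not called.

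Intestinal differentiation genes were mostly lower. Of 17 absorptive and goblet genes tested, 12 fell and none rose by limma, nor at an unadjusted p under 0.05, a called share of 70.6% with a median of -0.53. In bulk RNA, fewer cells of a kind and less RNA per cell cannot be told apart. CDX1 and CDX2, the intestinal homeobox factors, were at 24.8, 25.9 and 22.1 FPKM and at 23.6, 24.3 and 19.95 FPKM in Vector. In OE they were at 14.5, 13.99 and 14.95 FPKM and at 13.8, 15.2 and 14.8 FPKM, with log2 changes of -0.70 and -0.59. The groups were apart for both factors. VIL1, villin of the brush border, fell from 46.5 ± 0.316 to 32.0 ± 0.605 FPKM and DPP4, a brush border peptidase, from 21.2 ± 0.596 to 13.5 ± 0.559 FPKM (SD, n = 3 each). VIL1 overlaps USP37 on the other strand. ALPI, intestinal alkaline phosphatase, fell by 0.62, and CDH17, the liver-intestine cadherin, by 0.55. HNF4A, a hepatic and intestinal nuclear receptor, was not called, at 21.7 and 22.6 FPKM. MUC2, SI and SLC26A3 are not listed in the table. The number of falls was 10 to 13 in the 17 alternatives.

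Markers of the colon line itself divided by kind. CDX2, CDH17, VIL1, LGALS4, CDH1 and EPCAM fell, and KRT18 and KRT19 rose along with KRT8, whose call was lost in some alternatives. KRT19 was at 690, 700.5 and 685.3 FPKM in Vector and 816.5, 874.1 and 863 FPKM in OE. KRT8 and KRT18 overlap each other on opposite strands. EPCAM, an epithelial surface protein, had means of 343 and 298 FPKM in Vector and OE, so both groups carried the markers of the labelled line. Of markers of other cells, 9 of 12 blood and immune genes, PTPRC among them, and 10 of 12 endothelial and fibroblast genes are not listed. Those tested were low or shared with other cells: CD14 at 1.81 and 0.811 FPKM, CD8A at 0.972 and 1.08 FPKM and PDGFRB at 1.40 and 0.799 FPKM. CD68, a lysosomal protein, was at 16.4 and 18.2 FPKM. Of 10 neuroendocrine markers, VGF and ENO2 were tested and both fell. The part of these low markers in the results above was not tested.

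Some Wnt target genes were also lower. SW480 carries truncated APC, which keeps the Wnt pathway switched on. Of 19 targets, 7 fell and none rose by limma, nor at an unadjusted p under 0.05, with a median of -0.22, and 12 were not called. After the GC and length correction 10 fell. NOTUM, a secreted Wnt antagonist, was at 2.71, 2.66 and 2.53 FPKM in Vector and 0.744, 0.652 and 0.884 FPKM in OE, a log2 change of -1.05. Its OE values were all under 1 FPKM, so it passed the filter only through Vector. ASCL2, a stem-cell factor, was at 4.35, 4.69 and 2.97 FPKM in Vector and 1.49, 2.43 and 1.75 FPKM in OE. AXIN2, the standard target, fell from 69.3 ± 2.93 to 54.1 ± 1.80 FPKM (SD, n = 3 each), which is a change of -0.35. LGR5, CCND1 and SOX9 were not called. Of 19 ID and SMAD signalling genes, 1 rose and 2 fell, a called share of 15.8%. The falls were those of ID3, by 0.57, and ID2, by 0.41, both targets of BMP signalling. ID1 was not called, at 193 and 190 FPKM.

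Junction and mesenchymal genes did not move as sets. Of 26 epithelial adhesion genes, 4 rose and 7 fell. CLDN2, a pore-forming claudin, was at 57.1, 56.0 and 52.1 FPKM in Vector and 28.0, 29.2 and 29.9 FPKM in OE, a log2 change of -0.90 (SE 0.05, limma adjusted p = 7.31e-05), and TJP1, the scaffold ZO-1, rose by 0.35. CLDN2 overlaps MORC4 on the other strand. CLDN7 and CLDN4 were not called. Without Vector replicate 1 or 2 the set had 2 rises and 5 falls. Of 9 mesenchymal genes, 1 rose and 1, S100A4, fell, a called share of 22.2% near the 22.4% of all genes. VIM was not called (adjusted p = 0.19 by limma): it was at 1.01, 1.39 and 1.31 FPKM in Vector and 1.41, 1.95 and 9.66 FPKM in OE, so a single library held most of the difference.

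In the invasion group 8 of 18 genes rose and 4 fell. Of the laminin-332 genes, LAMB3 rose from 29.3 ± 1.40 to 40.9 ± 1.66 FPKM (SD, n = 3 each) and LAMA3 by 0.24. ITGB4, the beta chain of the laminin receptor, rose by 0.34, and PLEC, plectin, which anchors it to keratin, rose from 52.1 ± 1.23 to 85.2 ± 4.27 FPKM. MMP1, a collagenase, rose by 0.45 and MMP14 fell by 0.30. The other falls were those of the protease inhibitor genes TIMP1, TIMP2 and TIMP3. The calls of TIMP2 and TIMP3 were lost in some alternatives. Of Hippo pathway targets, 4 of 14 rose and 1 fell, with CYR61 from 13.9 ± 0.443 to 19.5 ± 0.376 FPKM. Without OE replicate 1 the latter set had 3 rises and no fall.

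Secreted and surface proteases were among the largest falls. Of 13 kallikrein and trypsinogen genes, 7 fell and none rose by limma, nor at an unadjusted p under 0.05. KLK11 was at 7.22, 5.70 and 6.65 FPKM in Vector and 1.46, 1.95 and 2.32 FPKM in OE, a log2 change of -1.38, and KLK14 fell by 1.36. KLK7 fell from 43.0 ± 2.67 to 18.6 ± 1.81 FPKM and KLK10, the most abundant, from 378.0 ± 28.9 to 216.9 ± 12.1 FPKM (SD, n = 3 each). The kallikreins lie in a cluster on chromosome 19. The trypsinogens PRSS1, PRSS2 and PRSS3 were not called, and as near-identical copies they may share reads. Of 17 surface peptidases and GPI-anchored proteins, 9 fell and 1, CD55, rose. DPEP1, a dipeptidase, was second among all called falls. It was at 30.9, 34.6 and 31.6 FPKM in Vector and 12.2, 10.5 and 11.7 FPKM in OE, a log2 change of -1.42 (SE 0.07, limma adjusted p = 4.74e-05).

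Proteins that the liver secretes are made at low levels by many colon cancer lines, and 9 of 9 tested here fell by limma, with a median of -0.95. Of the 28 genes in that list, 17 are not listed in the table and 2 were below the limit. AGT, angiotensinogen, was at 10.7, 11.5 and 11.3 FPKM in Vector and 4.46, 4.29 and 4.40 FPKM in OE, a log2 change of -1.18. SERPINA5 fell from 11.6 ± 0.404 to 4.48 ± 0.184 FPKM, CFB, a complement factor, from 19.96 ± 0.581 to 9.73 ± 0.115 FPKM, and APOC1 from 14.9 ± 1.58 to 7.18 ± 0.610 FPKM (SD, n = 3 each). CFB overlaps C2 on its own strand. VTN and SERPINA1 also fell, from 50.9 to 27.9 FPKM and from 26.7 to 14.6 FPKM. Between 6 and 9 fell in each of the 17 alternatives, though not all 9 were tested in each: APOH was left out by the filter at 5 FPKM.

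Calls among interferon-stimulated and antigen presentation genes were falls. Of 32 interferon-stimulated genes, 19 fell and none rose by limma, nor at an unadjusted p under 0.05, a called share of 59.4% with a median of -0.32. IFITM1, which blocks viral entry, was at 63.5, 56.8 and 60.2 FPKM in Vector and 30.5, 34.1 and 33.0 FPKM in OE, a log2 change of -0.87. IFI6, IFITM3 and OASL fell by 0.52, 0.48 and 0.47. After the GC and length correction 22 fell and 1 rose. BST2, tetherin, counted with the GPI-anchored proteins, fell from 37.2 ± 1.52 to 19.0 ± 1.92 FPKM (SD, n = 3 each). The signalling genes STAT2 and IRF9 were not called, at 11.2 and 11.3 and at 6.99 and 8.57 FPKM. IRF1 and DDX58, of the same list, were called lower. Of 16 genes of MHC class I presentation, 9 fell and none rose by limma, nor at an unadjusted p under 0.05. PSMB9, an immunoproteasome subunit, was at 11.5, 11.2 and 13.2 FPKM in Vector and 6.91, 8.29 and 5.91 FPKM in OE, and HLA-B fell from 277.3 ± 5.85 to 216.8 ± 7.43 FPKM. The HLA genes are highly similar to each other, and PSMB9 overlaps PSMB8 and TAP1 on the other strand. NF-kB and chemokine genes had 3 rises and 3 falls of 22, a called share of 27.3% beside 22.4% of all genes. NFKB2 and RELB rose by 0.34 and 0.35 and CSF1 fell by 0.41.

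Immediate-early genes and feedback inhibitors of ERK signalling rose in part, with 12 rises and 1 fall of 30. DUSP5, a nuclear ERK phosphatase, was at 38.7, 39.3 and 37.4 FPKM in Vector and 65.7, 60.1 and 70.8 FPKM in OE, a log2 change of 0.75. DUSP4, KLF6 and IER3 rose by 0.61, 0.57 and 0.52. ERRFI1, a feedback inhibitor of the EGF receptor, was one of the abundant rises, at 212.5, 193.7 and 222.4 FPKM in Vector and 363.9, 345.9 and 346.7 FPKM in OE. PTGS2, encoding COX-2, rose from 14.9 ± 0.726 to 26.5 ± 1.61 FPKM (SD, n = 3 each). FOS, JUN and DUSP6 were not called, and SPRY1 fell by 0.59. In lysosome and autophagy, 9 of 34 rose and 5 fell. The 4 largest rises were those of the autophagy protein LC3 and its cargo adaptors: MAP1LC3B, SQSTM1, TAX1BP1 and NBR1 rose by 0.48, 0.41, 0.42 and 0.40. Without Vector replicate 1 or OE replicate 2 that list had 6 or 5 rises and 2 falls, and without Vector replicate 2 it had 5 rises and 3 falls.

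**Figure D4:**
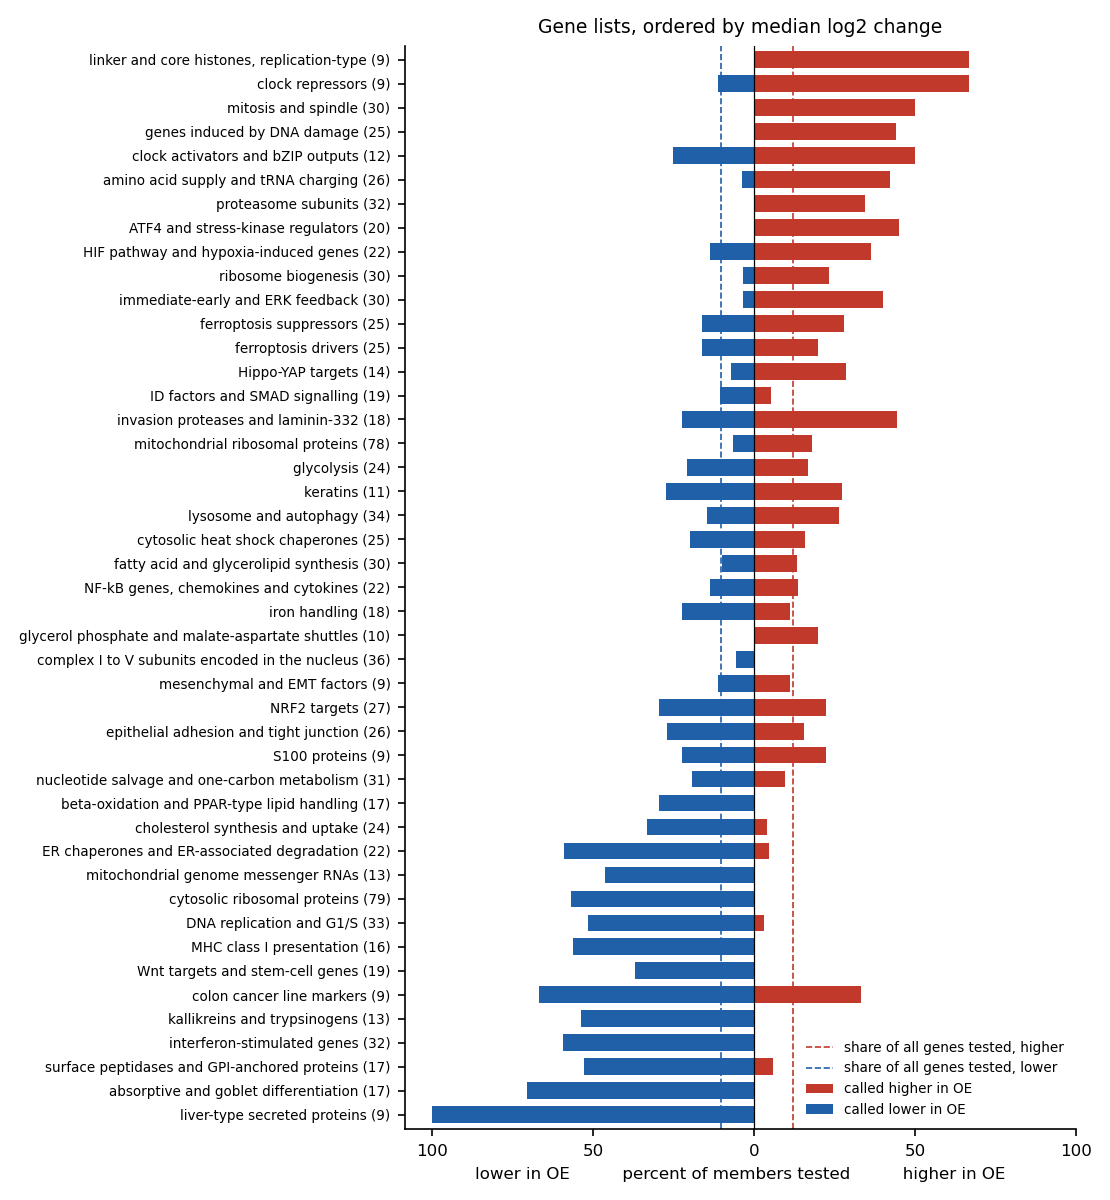
Bars give the percent of tested members called higher (red, right) or lower (blue, left) in OE for the lists with at least 9 tested members, ordered by median change, with the number tested in brackets. The dashed lines mark 12.2% higher and 10.3% lower over all genes tested, and the liver-type list reaches 100 on the lower side.

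A few large changes lie outside these groups. RARRES3, a retinoid-induced phospholipase, fell by 1.02 and DDC, DOPA decarboxylase, by 1.00. S100A4, a calcium-binding protein, fell from 309.2 ± 28.7 to 175.3 ± 14.5 FPKM, and AGR2, a secretory disulfide isomerase, from 193.2 ± 3.21 to 118.2 ± 2.73 FPKM (SD, n = 3 each). Some of the leading changes are of gene models whose spans overlap another gene on the same strand. Whether they share exons was not examined. The leading fall, AC118553.2, overlaps SLC35A3 and MFSD14A on its own strand. The largest called rise, of 2.88, was that of MATR3 (ENSG00000015479), from 6.78, 4.15 and 10.3 FPKM in Vector to 35.9, 59.3 and 80.9 FPKM in OE. Another gene model of the same symbol (ENSG00000280987), overlapping it on the same strand, fell from 103.1, 98.7 and 100.9 FPKM to 83.9, 54.9 and 33.4 FPKM, so reads may have moved between the models. Of the 25 leading rises and 25 leading falls, 4 and 4 overlap another gene on their own strand, and 6 and 2 overlap one on the other strand. Of the genes described above, ALDOC, DDC, HLA-B, IFITM1, MT-CO3 and ENO2 also overlap a neighbour on their own strand. ACADVL, CBR1, CCNE2, EPHX1, ITGB4, LPCAT3, MAP1LC3B, MCM2, MCM7, MTHFD2, PDIA6, SQSTM1, TAX1BP1, TNFRSF10B and VTN overlap one on the other strand.

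The knockdown of GPD1L in the same line gives values to set beside these. It used other lines (shGPD1L against shNC, 3 libraries each) that share no control with OE. There 72 of 12156 genes were called, or 0.592%. Of 11208 annotated genes tested in both tables, 30 were called in both, which is 44.1% of the 68 called in the knockdown and 1.15% of the 2620 called in OE. Over those 11208 genes 23.4% were called in OE. The direction was opposite for 18 of the 30 and the same for 12. Besides GPD1L and ATF3, those with opposite directions include HIST1H2BK, with log2 changes of 0.92 in OE and -0.76 in the knockdown, and ID3, with -0.57 and 0.71. PER1 and DBP were higher in both, with knockdown changes of 0.70 and 0.62. Without shGPD1L replicate 3, the only knockdown library that was left out, these 4 knockdown changes were -0.77, 0.61, 0.63 and 0.66. NR1D1 was not called in the knockdown (log2 change 0.25, limma adjusted p = 0.517). Without that library, 578 of these genes were called in the knockdown and 224 of them also in OE, 124 in opposite directions and 100 in the same.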

How the data were processed

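RNA from SW480 cells was sequenced after poly(A) selection, and the 3 OE and 3 Vector libraries come from a single table. Groups follow the sample titles, since the genotype labels of OE count the gene name upward along the replicates. The authors deposited FPKM values per gene. Reads were aligned to GRCh38 with HISAT2 and assembled with StringTie, and DESeq2 was also used, per the submitters' processing notes, with no versions given there. Counts are not in the files used here, so the sequencing depth is unknown and no counting interval is given. Both arms of the knockdown come from a table of their own.

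Of the 13583 listed genes, 12411 carry an Ensembl identifier and all of these matched GENCODE 29. Spreadsheet software had turned 21 symbols into dates, and they were restored from the identifier. FPKM values were taken as log2(FPKM + 1), genes with a mean under 1 FPKM were left out, and limma 3.58.1 in R 4.3.3 (moderated test with trend, Benjamini-Hochberg adjustment over all genes tested, threshold 0.05) compared the 3 OE with the 3 Vector libraries. For GPD1L and ATF3 an exact permutation test over libraries was added. Plots used Python 3.11.15 and matplotlib 3.10.9. Promoter sequences are from RefSeq on GRCh38.p14, and coordinates of genes are from GENCODE 29.

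Simulated data had the real means and spreads of the 12208 genes of this comparison. There 74 of 100 genes changed by 0.5 (log2) and 97 of 100 changed by 1 were recovered, and 8 unchanged genes were called. The changed genes were drawn only from those above a set mean level, so these rates do not cover the lowest genes. Noise was independent between genes and libraries, with no GC or length trend. Changes of the median called size, 0.3, were not simulated. Same-numbered Vector and OE libraries had deviations that correlated at 0.0222, -0.0607 and -0.0363, and the labels name no shared origin, so the numbers do not pair the libraries.

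The 48 gene lists and the genes described were chosen with earlier results of these data known. Genes named are GPD1L, GPD1, GPD2 and ATF3, the 25 largest called rises and 25 largest called falls, up to 5 each way per list, the 5 largest each way over 100 FPKM, and list members whose role is described. The list of genes induced by DNA damage is given by its kind and example members, not by its working name. The list counts are descriptions, beside the share called over all genes. Alternatives changed the pseudocount (0.1 or 0.5), the filter (none, or 5 FPKM) or the scaling (3 kinds), used limma without trend or robust, added a replicate block or left out each library in turn. The GC and length correction, a trend removed from each library, was added after the data were seen. Some genes that the rule would name are not reported here.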

Additional observations from a re-analysis of the deposited data

How the results depend on the processing

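With 2740 genes called, the count was 2462 to 3418 under the other pseudocounts, filters, scalings, limma settings and the GC and length correction. It was 1550 to 1980 when a single library was left out, lowest without Vector replicate 2, and 1749 without OE replicate 2, 1679 without Vector replicate 1 and 1801 without OE replicate 1. The called genes changed at least 2-fold numbered 29, against 79 with a pseudocount of 0.1, 48 with 0.5, 13 with a filter at 5 FPKM, 19 with the GC and length correction and 24 to 38 when a single library was left out. A smaller pseudocount shrinks low values less by construction. With a replicate block, 2021 genes were called, of which 1930 were among the 2740, and the same-numbered libraries did not deviate together. Over 279 named genes tested and 17 alternatives, 4291 of 4704 values stayed on their side of the threshold with their direction, 412 lost the call, 1 gained it and 0 changed direction. Of those genes, 203 stayed so in each alternative. Depth cannot be read from FPKM, so no limit of detection is given for low genes. Each arm is a single line, and the separate knockdown table was not tested against this one.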
